A study of Homo sapiens with 8 samples.

Results

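The report covers 10 genes of the extracellular matrix, fibronectin (FN1) and 9 genes for secreted matricellular proteins (SPARC, POSTN, TNC, THBS1, THBS2, SPP1, SPON1, SPON2 and SPARCL1), chosen by name from the 60558 genes of each expression file. RNA was sequenced from 8 libraries of 2D human intestinal epithelial cells (2D hIECs), which were differentiated as a monolayer on Matrigel-coated inserts from H9, a human embryonic stem cell line. The study asked how PM10, airborne particulate matter, acts on normal and on cytokine-inflamed intestinal cells. Each of the 4 groups had 2 libraries, and all came from H9, so they stand for 1 genetic background. Normal hIECs (labelled NT) received neither agent. Normal hIECs with PM10 received 100 µg/ml of PM10 over the last 7 days. Inflamed hIECs (labelled IT) received IFNγ and TNFα, each at 50 ng/ml, for 10 days. Inflamed hIECs with PM10 received both treatments. The label on treatment time reads 10 days in every library. No label says whether the libraries of a group came from separate cultures, so the p-values measure the spread between these libraries, which may be technical.

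Matricellular proteins are secreted into the extracellular matrix, where they modulate how cells attach, migrate and respond to growth factors, without being its main structural scaffold. Fibronectin is a structural glycoprotein that cells assemble into fibrils and bind through integrins, and tenascin C, periostin and thrombospondins all associate with it. In the gut wall several of these genes are best known from fibroblasts and smooth muscle cells, and several are known to rise in wound repair and inflammation.

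The values are FPKM, which are scaled to gene length, so the levels of different genes can be set side by side. The lowest value above 0 was between 0.164 and 0.228 FPKM in the 8 libraries, and a gene below that is listed at 0. Markers of the labelled cell type were checked before the genes were compared. Of 14 epithelial markers, 7 were listed at 0 in every library (KRT20, CLDN3, CLDN7, ESRP1, ESRP2, CDX2 and VIL1), EPCAM did not exceed 0.622 FPKM, and CDH1, which encodes E-cadherin, was above 0 in a single library, at 0.221 FPKM. KRT8 and KRT18, keratins of simple epithelia that other cells also make, carried nearly all of the epithelial sum, and KRT8, the most abundant, averaged 289 FPKM. All 7 mature enterocyte markers (APOA1, APOA4, FABP2, ALPI, SI, LCT and SLC15A1) were listed at 0. All 12 mesenchymal markers were measured, led by VIM at a mean of 859 FPKM. The defining epithelial markers were thus at or near 0 in the libraries labelled hIECs, while mesenchymal markers were abundant.

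**Figure D1:**
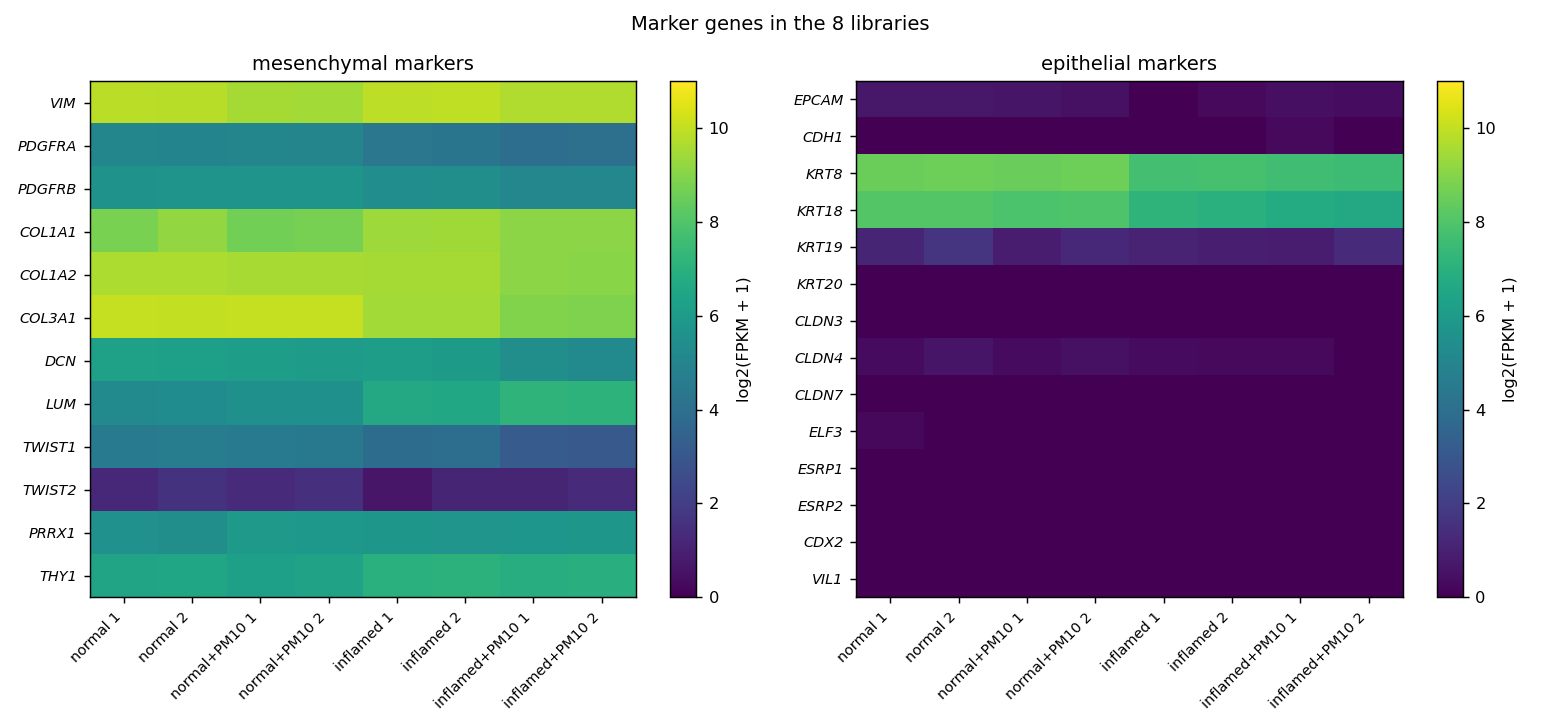
Level of 12 mesenchymal and 14 epithelial marker genes as log2(FPKM + 1), shown by colour, with 1 column for each of the 8 libraries and 1 row for each gene. Among the mesenchymal rows VIM, COL1A1, COL1A2 and COL3A1 are the brightest and TWIST2 is the darkest. TWIST1 is also dim in inflamed hIECs with PM10 (8.03 and 7.29 FPKM). Among the epithelial rows only KRT8 and KRT18 are bright, and both are darker in the 4 inflamed libraries.

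Together the 10 genes made up 0.623% and 0.546% of all FPKM in the normal libraries without PM10 and 0.565% and 0.576% in those with PM10, and 0.862% and 0.864% in the inflamed libraries without PM10 and 0.916% and 0.914% in those with PM10. The 4 inflamed libraries all stood above the 4 normal ones. Transcripts of mitochondrial DNA took between 15.5% and 24.2% of FPKM, and without them the share was 0.709% to 0.750% in the normal libraries and 1.04% to 1.08% in the inflamed ones. In normal hIECs, SPARC and FN1 had the highest levels and their libraries overlapped, followed by POSTN, TNC, THBS1, SPP1, SPARCL1, THBS2, SPON1 and SPON2, each of which was separated from its neighbour. In inflamed hIECs the order was FN1, SPARC, TNC, POSTN, THBS1, SPP1, THBS2, SPARCL1, SPON2 and SPON1, with no overlap between neighbours. In normal hIECs with PM10 the order was that of normal hIECs. TNC stood above POSTN in inflamed hIECs but below it again in inflamed hIECs with PM10 (means of 489 and 507 FPKM), while THBS2 stood above SPARCL1 in both inflamed groups. SPON2, an F-spondin relative, stood at 0.191 and 0.299 FPKM in normal hIECs, 0 and 0.562 FPKM with PM10, 0.613 and 0.367 FPKM in inflamed hIECs and 0.445 and 0.354 FPKM in inflamed hIECs with PM10. It did not reach 1 FPKM in any library and was not tested.

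**Figure D2:**
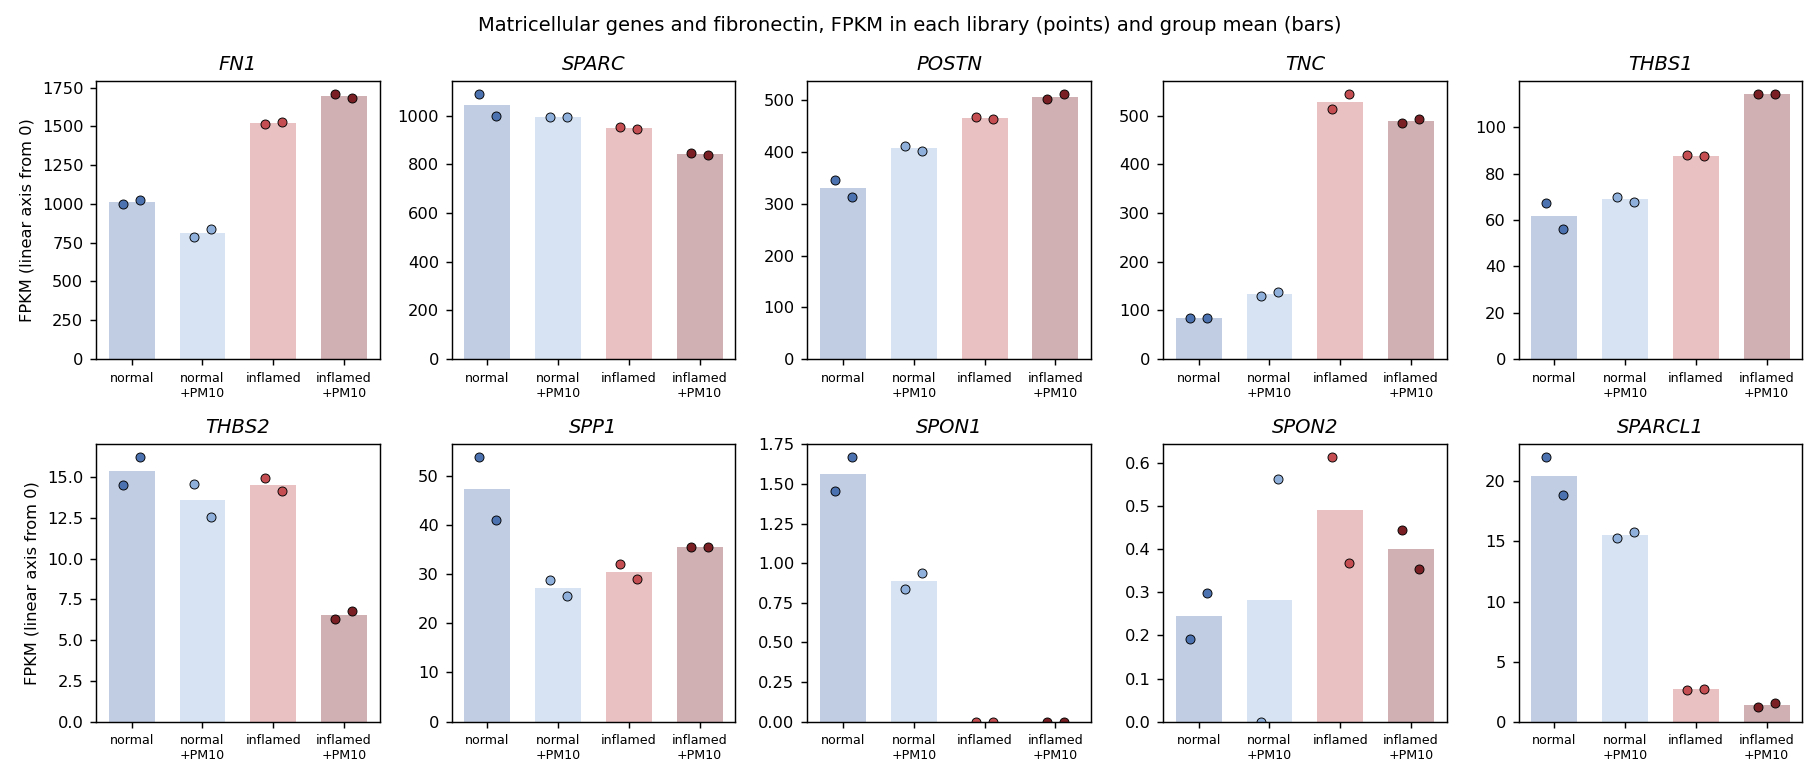
FPKM of the 10 genes on linear axes from 0, with 1 point for each of the 2 libraries of a group and a bar at the group mean. FN1 and TNC stand higher in all 4 inflamed libraries than in the normal ones, SPARCL1 stands lower, and THBS2 is low in the 2 inflamed libraries with PM10.

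Expression was compared on log2(FPKM + 1) with limma over 14206 genes, and a gene was called when its adjusted p was under 0.05. Of the 10 genes, 9 passed the filter of at least 1 FPKM in at least 2 libraries, SPON1 through the untreated normal libraries alone. That choice set SPON1 to be lower in the other groups, so it is left out of the counts and sizes given here, which cover the other 8. Cytokines without PM10 (inflamed against normal hIECs) called 6 of these 8, 4 higher and 2 lower, where 56.2% of all genes were called (25.9% higher and 30.3% lower). Cytokines with PM10 (inflamed against normal hIECs, both with PM10) called 8 of 8, 5 higher and 3 lower, against 65.4% of all genes (25.8% higher and 39.6% lower). PM10 in normal hIECs called 5, 2 higher and 3 lower, against 9.23% of all genes (5.51% higher and 3.72% lower), and none of these 5 calls held when only the 2 groups compared entered the fit (limma adjusted p between 0.0660 and 0.155, 5 of 8 at an unadjusted p under 0.05). PM10 in inflamed hIECs called 3, 1 higher and 2 lower, against 15.2% of all genes (6.22% higher and 9.02% lower). A fit of those 2 groups alone called 6. Over the alternatives run, that fit included, between 675 and 2992 of the 14206 genes were called for PM10 in inflamed hIECs. The interaction, which is the effect of PM10 in inflamed hIECs minus that in normal hIECs, was called for 4, 2 positive and 2 negative, against 6.6% of all genes (2.11% positive and 4.48% negative). The 5 comparisons share libraries (normal hIECs enter those of PM10 and of cytokines alike), so their results are not separate evidence.

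The median absolute log2 change of the 8 genes was 0.55 for cytokines without PM10 and 0.83 with PM10, beside 0.30 and 0.38 over all genes. For PM10 it was 0.31 in normal and 0.19 in inflamed hIECs, beside 0.14 and 0.14 over all genes. Under cytokines without PM10, 2 genes (TNC and SPARCL1) passed 2-fold, as did 9.39% of all genes, and with PM10 TNC, SPARCL1 and FN1 did, as did 13% of all genes. None passed 2-fold with PM10 in normal hIECs, where 0.577% of all genes did, and only THBS2 did so with PM10 in inflamed hIECs, where 0.845% of all genes did. No interaction passed it, against 1.41% over all genes. Among cytokine changes with PM10 the median of all genes was -0.11, so a gene with no change relative to the others would stand slightly below 0. In bulk RNA, fewer cells of a type and less RNA per cell cannot be told apart, and this holds for every change given here.

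**Figure D3:**
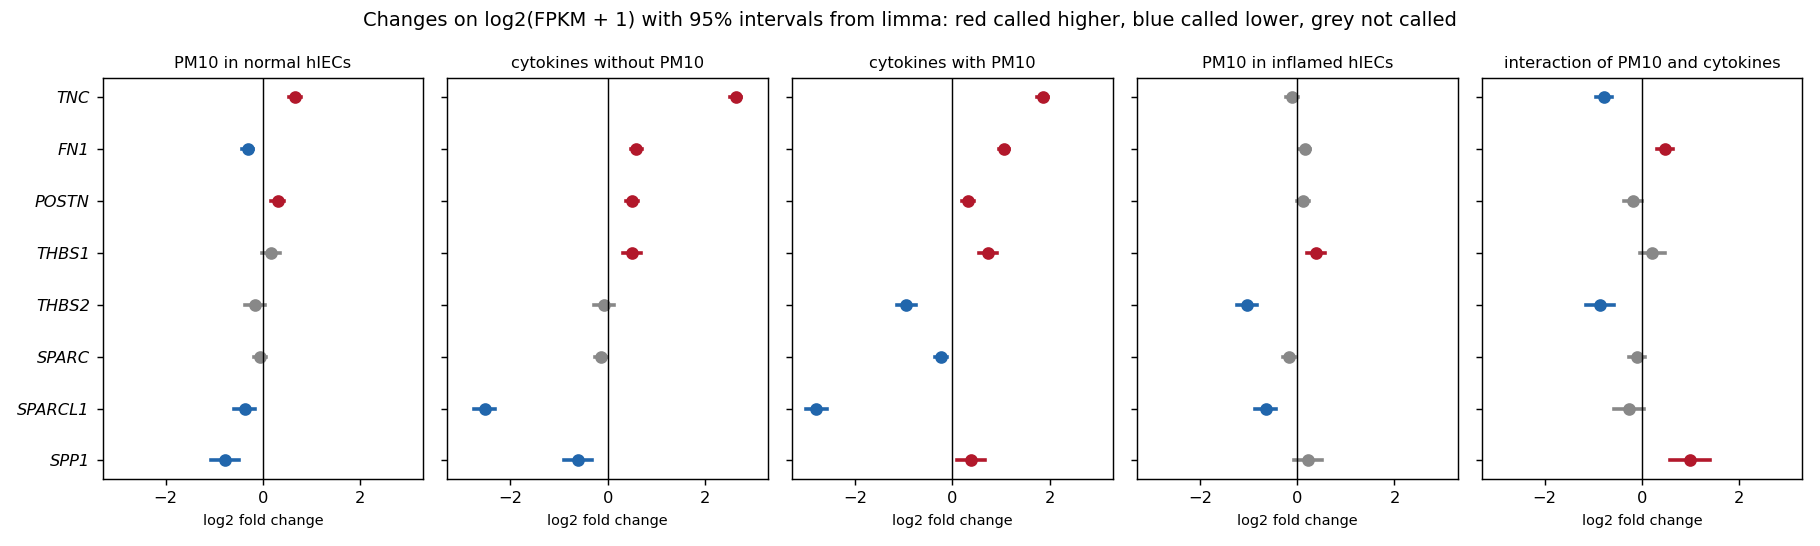
Log2 fold change on log2(FPKM + 1) of 8 of the genes in the 5 comparisons, with points for the estimate and lines for the 95% interval from limma. Red points were called higher, blue points lower and grey points were not called. TNC stands farthest to the right and SPARCL1 farthest to the left in both cytokine comparisons, and SPON1 is left out because it was listed at 0 in the inflamed libraries.

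Fibronectin rose with cytokines, and PM10 acted on it in opposite directions in the 2 backgrounds by point estimate. FN1 (chr2:215360440-215436073, minus strand) stood at 1001 and 1028 FPKM in normal hIECs, 789 and 840 FPKM with PM10, 1514 and 1529 FPKM in inflamed hIECs and 1707 and 1684 FPKM in inflamed hIECs with PM10. No group overlapped another, with normal hIECs with PM10 lowest and inflamed hIECs with PM10 highest. The cytokines raised the mean 1.50-fold without PM10 (log2 fold change 0.58, SE 0.048, limma adjusted p = 4.5e-05) and 2.08-fold with PM10 (log2 fold change 1.06, SE 0.048, limma adjusted p = 1.74e-06). In normal hIECs PM10 lowered FN1 (log2 fold change -0.32, SE 0.048, limma adjusted p = 0.0115), a call lost without normal PM10 replicate 1 (limma adjusted p = 0.0903). In inflamed hIECs the estimate was positive but did not pass the test (log2 fold change 0.16, SE 0.048, limma adjusted p = 0.0672), although it did without either normal library (limma adjusted p = 0.0262 and 0.0260). It also passed after quantile normalization (limma adjusted p = 0.0235), without mitochondrial genes (0.0262) and in a fit of the 2 groups alone (0.0284). The difference between the PM10 effects was called (log2 fold change 0.47, SE 0.067, limma adjusted p = 0.0105). It was not called without normal PM10 replicate 1, inflamed replicate 1 or 2, or inflamed PM10 replicate 1 (limma adjusted p between 0.0535 and 0.0587).

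Tenascin C, an extracellular glycoprotein that is scarce in most adult tissues and appears at sites of injury, showed the greatest rise of the 10 genes. TNC (chr9:115019575-115118207, minus strand) stood at 85.1 and 83.8 FPKM in normal hIECs, 130 and 138 FPKM with PM10, 513 and 544 FPKM in inflamed hIECs and 485 and 492 FPKM in inflamed hIECs with PM10. The groups did not overlap, and the gap between the normal and inflamed libraries was far wider than that between libraries of a group. The cytokine rise was 6.26-fold without PM10 (log2 fold change 2.63, SE 0.050, limma adjusted p = 3.16e-08), the 126th largest absolute change of the 14206 genes. It was 3.63-fold with PM10 (log2 fold change 1.85, SE 0.050, limma adjusted p = 1.48e-07). PM10 raised TNC 1.59-fold in normal hIECs (log2 fold change 0.66, SE 0.050, limma adjusted p = 0.00115), while in inflamed hIECs the difference did not pass the test (log2 fold change -0.11, SE 0.050, limma adjusted p = 0.174). The interaction was negative (log2 fold change -0.78, SE 0.071, limma adjusted p = 0.00205) and was called with any single library left out.

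The 250 bases before the RefSeq start site of TNC (GRCh38.p14, chr9:115118158-115118407, minus strand, written 5′ to 3′) are shown because TNC had the greatest cytokine rise of the 10 genes, and capitals mark a match to GGGNNTTCC, the letters of an NF-kB element, starting 217 bases before the start, and a TATATAA box 29 bases before it.
TNC: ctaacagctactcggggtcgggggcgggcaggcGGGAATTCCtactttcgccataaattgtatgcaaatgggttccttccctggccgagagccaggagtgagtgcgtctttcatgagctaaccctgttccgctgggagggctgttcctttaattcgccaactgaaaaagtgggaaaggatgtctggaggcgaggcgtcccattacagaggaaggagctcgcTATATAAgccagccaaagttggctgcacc
Searched on both strands, GGGNNTTCC stands in 5.78% and TATATAA in 2.42% of the 35116 RefSeq promoter windows of this length. The match is a description of the sequence and says nothing of binding.

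Periostin, a secreted protein that binds collagen and fibronectin and is typical of activated fibroblasts, rose with cytokines. With all libraries in the fit, its rise with PM10 passed the test in normal but not in inflamed hIECs. POSTN (chr13:37562583-37598844, minus strand) stood at 346 and 313 FPKM in normal hIECs, 413 and 402 FPKM with PM10, 467 and 465 FPKM in inflamed hIECs and 503 and 512 FPKM in inflamed hIECs with PM10. The 4 groups stood in that order with no overlap. Cytokines raised it 1.41-fold without PM10 (log2 fold change 0.50, SE 0.055, limma adjusted p = 0.000209) and 1.25-fold with PM10 (log2 fold change 0.32, SE 0.055, limma adjusted p = 0.00165). PM10 raised it 1.23-fold in normal hIECs (log2 fold change 0.30, SE 0.055, limma adjusted p = 0.0204), a call lost without either normal PM10 library (limma adjusted p = 0.0930 and 0.123). In inflamed hIECs the rise of 1.09-fold did not pass the test (log2 fold change 0.12, SE 0.055, limma adjusted p = 0.176), but was called without either normal library (limma adjusted p = 0.0239 and 0.0241). The effects of PM10 in the 2 backgrounds were not shown to differ (log2 fold change -0.18, SE 0.078, limma adjusted p = 0.212), but the interaction was called without normal replicate 1 (limma adjusted p = 0.0226).

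SPARC and SPARCL1 are related genes, for a collagen-binding matricellular protein and for hevin, and they differed in response. SPARC (chr5:151661096-151686975, minus strand) stood at 1089 and 998 FPKM in normal hIECs, 996.3 and 996.2 FPKM with PM10, 955 and 946 FPKM in inflamed hIECs and 848 and 840 FPKM in inflamed hIECs with PM10. Its whole range was narrow, and the lower normal library lay close to both normal libraries with PM10. It was lower with cytokines in the presence of PM10 (log2 fold change -0.24, SE 0.051, limma adjusted p = 0.00461), a difference that was 0 after quantile normalization. Without PM10 the cytokine difference did not pass the test (log2 fold change -0.13, SE 0.051, limma adjusted p = 0.0593) but was called without either normal library (limma adjusted p = 0.0498 and 0.00133). PM10 gave no call in normal hIECs (log2 fold change -0.07, SE 0.051, limma adjusted p = 0.433) or in inflamed hIECs (log2 fold change -0.17, SE 0.051, limma adjusted p = 0.0644). The call in normal hIECs was made without normal replicate 2 (limma adjusted p = 0.0454), and that in inflamed hIECs without either normal library (0.00433 and 0.00424). The interaction was not called (log2 fold change -0.11, SE 0.073, limma adjusted p = 0.427) except without normal replicate 1 (limma adjusted p = 0.0335).

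SPARCL1 (chr4:87473335-87531061, minus strand) stood at 22.0 and 18.9 FPKM in normal hIECs, 15.3 and 15.8 FPKM with PM10, 2.65 and 2.74 FPKM in inflamed hIECs and 1.22 and 1.52 FPKM in inflamed hIECs with PM10. The groups did not overlap, and each treatment went with a lower level. Cytokines lowered it 7.59-fold without PM10 (log2 fold change -2.53, SE 0.092, limma adjusted p = 8.03e-07) and 11.3-fold with PM10 (log2 fold change -2.80, SE 0.092, limma adjusted p = 3.73e-07). PM10 lowered it 1.97-fold in inflamed hIECs (log2 fold change -0.64, SE 0.092, limma adjusted p = 0.00558). In normal hIECs the fall was 1.32-fold (log2 fold change -0.37, SE 0.092, limma adjusted p = 0.0489), just inside the threshold, and the call was lost when any library but normal replicate 2 was left out (limma adjusted p between 0.0629 and 0.198). It was also lost with a pseudocount of 0.1 or 0.5, without the filter, without mitochondrial genes and without the trend (limma adjusted p between 0.0502 and 0.0867). Of 18 alternatives, 4 kept the call. The interaction was not called (log2 fold change -0.27, SE 0.13, limma adjusted p = 0.265). The ratio of SPARC to SPARCL1 within a library stood at 51.1 ± 2.40 (SD, n = 2) in normal hIECs and 64.2 ± 1.37 after PM10, and at 352 ± 10.9 in inflamed hIECs and 623 ± 101 after cytokines and PM10.

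The 250 bases before the RefSeq start site of SPARCL1 (GRCh38.p14, chr4:87529377-87529626, minus strand, 5′ to 3′) are given because SPARCL1 fell most under cytokines, with SPON1 left out. Capitals mark a match to the interferon-stimulated response element (ISRE), starting 137 bases before the start.
SPARCL1: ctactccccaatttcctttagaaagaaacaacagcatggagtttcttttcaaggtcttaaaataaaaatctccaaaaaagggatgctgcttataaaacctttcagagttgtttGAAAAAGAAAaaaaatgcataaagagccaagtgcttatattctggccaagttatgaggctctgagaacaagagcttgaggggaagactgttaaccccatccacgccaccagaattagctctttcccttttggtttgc
A match to that element stands in 3.02% of all windows, on either strand.

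**Figure D4:**
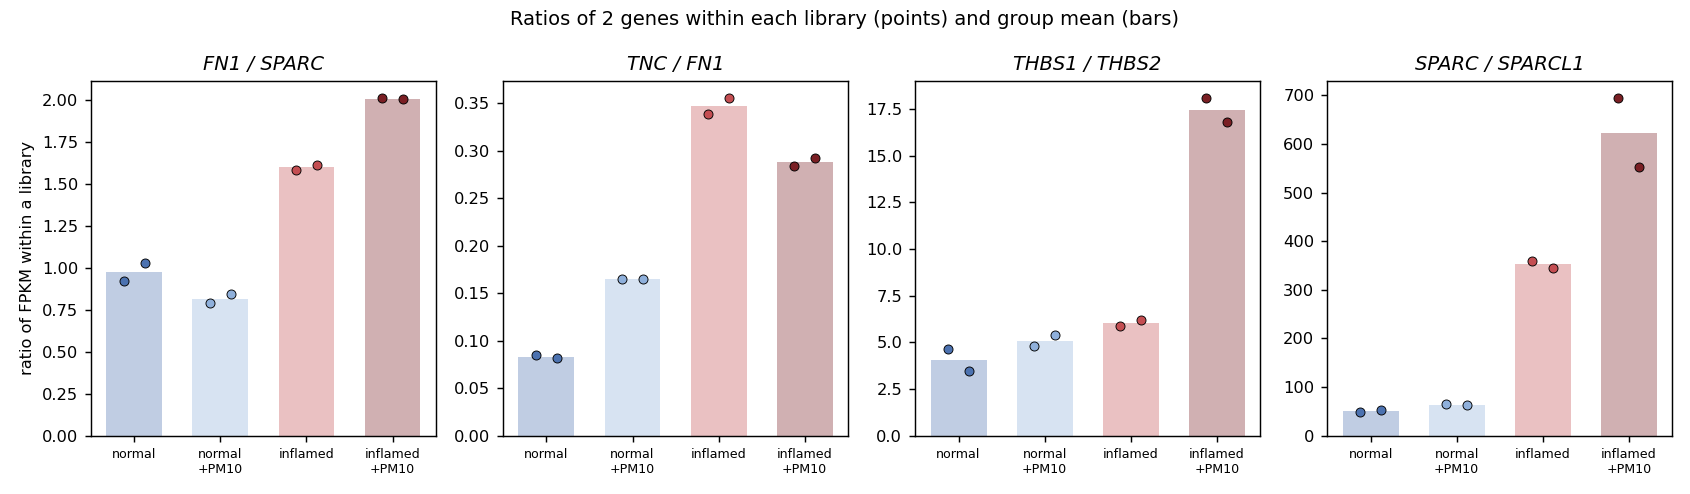
Ratio of the FPKM of 2 genes within each library, on linear axes from 0, with points for libraries and bars for the mean of the 2 libraries of a group. FN1 over SPARC rises from about equal levels in normal hIECs to 2.01 in inflamed hIECs with PM10, and THBS1 over THBS2 stands at 17.4 in that group alone.

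THBS1 and THBS2, which encode thrombospondins that inhibit new vessel growth through CD36 and CD47, went opposite ways under PM10 in inflamed hIECs. THBS1 (chr15:39581079-39599466, plus strand) stood at 67.3 and 56.0 FPKM in normal hIECs, 69.8 and 67.9 FPKM with PM10, 87.85 and 87.49 FPKM in inflamed hIECs and 114.22 and 114.20 FPKM in inflamed hIECs with PM10. Each inflamed library stood above each normal one. THBS2 (chr6:169215780-169254050, minus strand) stood at 14.5 and 16.2 FPKM in normal hIECs, 14.6 and 12.6 FPKM with PM10, 14.96 and 14.14 FPKM in inflamed hIECs and 6.32 and 6.79 FPKM in inflamed hIECs with PM10. Here 3 groups overlapped and only inflamed hIECs with PM10 stood apart. Cytokines raised THBS1 1.42-fold without PM10 (log2 fold change 0.51, SE 0.079, limma adjusted p = 0.00124) and 1.66-fold with PM10 (log2 fold change 0.72, SE 0.079, limma adjusted p = 0.000154). THBS2 did not pass the test without PM10 (log2 fold change -0.07, SE 0.087, limma adjusted p = 0.501) and was 2.07-fold lower with PM10 (log2 fold change -0.95, SE 0.087, limma adjusted p = 6.24e-05).

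In inflamed hIECs, PM10 lowered THBS2 2.22-fold (log2 fold change -1.04, SE 0.087, limma adjusted p = 0.000768), the 107th largest absolute change among all genes, and this call held with any single library left out. THBS1 was 1.30-fold higher (log2 fold change 0.38, SE 0.079, limma adjusted p = 0.0215), a call that was lost when any of the 4 inflamed libraries was left out (limma adjusted p between 0.0989 and 0.104). In normal hIECs neither gene was called, with changes of 0.16 ± 0.079 (log2 fold change, SE, limma adjusted p = 0.22) for THBS1 and -0.17 ± 0.087 (log2 fold change, SE, limma adjusted p = 0.245) for THBS2, although THBS1 was called without normal replicate 1 (limma adjusted p = 0.00866). The effect of PM10 on THBS2 differed between the backgrounds (log2 fold change -0.87, SE 0.12, limma adjusted p = 0.0104), a call lost without inflamed replicate 1 (limma adjusted p = 0.0518) or inflamed PM10 replicate 1 (0.0502). For THBS1 it was not shown to differ (log2 fold change 0.22, SE 0.11, limma adjusted p = 0.298), but was called without normal replicate 2 (limma adjusted p = 0.0151). The ratio of THBS1 to THBS2 within a library stood at 4.04 ± 0.841 (SD, n = 2) in normal hIECs and 5.09 ± 0.431 after PM10, and at 6.03 ± 0.223 in inflamed hIECs and 17.4 ± 0.903 after cytokines and PM10. The labels give the libraries as not strand-specific, and the antisense gene THBS2-AS1 shares 31.2% of the exonic bases of THBS2, so reads there cannot be told apart. THBS2-AS1 itself did not exceed 0.532 FPKM. THBS1 shares 4.89% of its exonic bases with FSIP1 and 4.49% with THBS1-AS1, which reached 0.287 and 1.17 FPKM. Smaller shares of exonic bases lay opposite other genes for SPARC (CLMAT3, 4.12%), SPP1 (a lncRNA with no symbol, 2.70%), SPON1 (SPON1-AS1, 2.44%) and TNC (DELEC1, 1.35%), and no gene overlapped FN1, POSTN or SPARCL1.

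The windows of 250 bases before the RefSeq start sites of this pair (GRCh38.p14, THBS1 at chr15:39580829-39581078 on the plus strand and THBS2 at chr6:169253847-169254096 on the minus strand, 5′ to 3′) are set beside each other because the genes are related and parted under the combined treatment.
THBS1: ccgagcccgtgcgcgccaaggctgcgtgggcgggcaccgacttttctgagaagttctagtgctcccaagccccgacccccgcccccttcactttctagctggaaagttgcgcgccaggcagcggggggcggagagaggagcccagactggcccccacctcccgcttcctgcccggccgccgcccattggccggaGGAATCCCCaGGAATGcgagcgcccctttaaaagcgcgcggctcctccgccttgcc
THBS2: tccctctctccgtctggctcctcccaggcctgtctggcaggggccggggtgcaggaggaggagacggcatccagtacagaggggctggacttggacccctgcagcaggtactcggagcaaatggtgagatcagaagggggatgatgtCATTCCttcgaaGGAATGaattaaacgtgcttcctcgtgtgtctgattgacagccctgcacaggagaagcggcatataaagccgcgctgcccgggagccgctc
Capitals mark, in THBS1, a match to GGGNNTTCC on the opposite strand starting 56 bases before the start and GGAATG (a TEAD element) at 46 bases. In THBS2 they mark GGAATG on the opposite strand at 103 bases and on the gene's strand at 91 bases. GGAATG stands in 11.9% of all windows. TGANTCA, an AP-1 element in 6.57% of windows, was searched as well and had no match in the 4 windows shown. GCGTG, the core of an aryl hydrocarbon receptor element in 32.2% of windows, and GGGCGG, a GC box in 42.6%, were searched and are not put in capitals. No marked match overlapped another. RefSeq windows were found for 9 of the 10 genes, all but SPON1.

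Osteopontin, a secreted phosphoprotein that binds integrins and CD44, fell with either agent alone. SPP1 (chr4:87975667-87983532, plus strand) stood at 53.8 and 41.0 FPKM in normal hIECs, 28.7 and 25.5 FPKM with PM10, 32.1 and 29.0 FPKM in inflamed hIECs and 35.45 and 35.44 FPKM in inflamed hIECs with PM10. Both normal libraries stood above the other 6, and they differed from each other more than the libraries of any other group did. PM10 lowered SPP1 1.75-fold in normal hIECs (log2 fold change -0.77, SE 0.12, limma adjusted p = 0.0141), a call lost without either normal PM10 library (limma adjusted p = 0.0619 and 0.0885). Cytokines lowered it 1.55-fold without PM10 (log2 fold change -0.61, SE 0.12, limma adjusted p = 0.00438). With PM10 the cytokine comparison had the opposite sign (log2 fold change 0.38, SE 0.12, limma adjusted p = 0.0284), and it was not called without normal PM10 replicate 2 (limma adjusted p = 0.148) or either inflamed PM10 library (0.0939 and 0.0945). PM10 in inflamed hIECs gave no call (log2 fold change 0.21, SE 0.12, limma adjusted p = 0.279). The interaction was positive (log2 fold change 0.98, SE 0.17, limma adjusted p = 0.023), and was lost when any library other than the 2 normal ones was left out (limma adjusted p between 0.0590 and 0.0852).

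SPON1, which encodes F-spondin, an adhesion protein best known from the developing nervous system, was near the detection limit. SPON1 (chr11:13962723-14268133, plus strand) stood at 1.46 and 1.67 FPKM in normal hIECs and 0.840 and 0.941 FPKM with PM10, and was listed at 0 in all 4 inflamed libraries. The normal groups did not overlap. It entered the fit only because the untreated normal libraries reached 1 FPKM, so no test or fold of it is given, and its levels are a description.

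Ratios within a library do not depend on how libraries are scaled to each other. FN1 stood at 0.975 ± 0.0781 times SPARC (SD, n = 2) in normal hIECs and 0.817 ± 0.0360 after PM10, and at 1.60 ± 0.0221 in inflamed hIECs and 2.01 ± 0.00639 after cytokines and PM10. The groups did not overlap. TNC stood at 0.0833 ± 0.00243 times FN1 in normal hIECs and 0.165 ± 0.000247 after PM10, and at 0.347 ± 0.0120 in inflamed hIECs and 0.288 ± 0.00576 after cytokines and PM10. Against untreated normal hIECs, TNC thus gained on FN1 under each treatment, most under cytokines alone. In inflamed hIECs the ratio was lower with PM10 than without it. An exact permutation test of 2 libraries against 2 cannot give a two-sided p below 0.333, so no test is given for these ratios.

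Among 23 other genes for matricellular proteins, 8 were listed at 0 in every library and 13 were tested. COMP and THBS4 passed the filter through the inflamed or the normal libraries alone, so they are left out of the counts. Cytokines without PM10 raised 3 and lowered 5 of the other 11 (median log2 change -0.01, beside -0.03 over all genes), where 25.9% of all genes were higher and 30.3% lower. With PM10 they raised 6 and lowered 5, where 25.8% of all genes were higher and 39.6% lower. SMOC2, a calcium-binding relative of SPARC, stood at 33.9 and 31.0 FPKM in normal hIECs and 3.04 and 2.68 FPKM in inflamed hIECs (log2 fold change -3.11, limma adjusted p = 8.76e-08). SPOCK1 and SPOCK3, proteoglycans with a SPARC-like domain, had log2 fold changes of -2.24 and -2.23. The 3 that rose, named after their values were seen, were the adhesion proteins CCN1, CCN3 and CCN4, with log2 changes of 1.16, 0.38 and 1.24. THBS4, another thrombospondin, stood at 4.22 and 5.36 FPKM in normal hIECs and 0.723 and 0.858 FPKM in inflamed hIECs. The cartilage thrombospondin COMP was listed at 0 in all 4 normal libraries and stood at 0.654 and 0.803 FPKM in inflamed hIECs. TGFBI, the most abundant, averaged 1070 FPKM and was not called under cytokines without PM10. Of the 11, PM10 in normal hIECs raised CCN1, SPOCK1 and SPOCK2 and lowered CCN2, where 5.51% of all genes were higher and 3.72% lower. Over all 13 tested, COMP and THBS4 included, 2 were higher and 3 lower after median centring. The counts were 4 and 1 after quantile normalization and without mitochondrial genes. In inflamed hIECs PM10 raised CCN1, CCN3 and TGFBI and lowered SMOC2 and SPOCK3, where 6.22% of all genes were higher and 9.02% lower. All genes named here for PM10 were named after their values were seen.

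Receptors of these proteins rose almost as a group under cytokines. Of 18 receptor genes 15 were tested, and 14 were higher and 1 lower without PM10 (median log2 change 0.56, beside -0.03 over all genes) as well as with PM10 (median 1.03, beside -0.11). Of all genes 25.9% were higher and 30.3% lower without PM10, and 25.8% and 39.6% with PM10. CD44, the hyaluronan and osteopontin receptor, stood at 3.67 and 3.71 FPKM in normal hIECs and 13.98 and 15.35 FPKM in inflamed hIECs (log2 fold change 1.74, limma adjusted p = 2.69e-05). SDC4, a heparan sulfate co-receptor for fibronectin, rose by 1.46 on the log2 scale, ITGAV, the integrin chain that binds fibronectin, periostin and osteopontin, by 1.06, and CD47, a thrombospondin receptor, by 0.87. CD36, the other thrombospondin receptor named above, was not tested. It stood at 0.665 and 0.678 FPKM in normal hIECs and was listed at 0 in every inflamed library. The tested gene that fell, named after its value was seen, was ITGA8, an integrin chain typical of mesenchymal cells (log2 fold change -0.81, limma adjusted p = 2.05e-05). ITGB1, the common integrin chain and the most abundant receptor, averaged 325 FPKM and was also higher. PM10 in normal hIECs raised 0 of the 15 and lowered 3, the integrin chains ITGA3, ITGA4 and ITGA8. There 5.51% of all genes were higher and 3.72% lower. In inflamed hIECs PM10 raised 5 (CD44, ITGA3, ITGB1, ITGB3 and SDC1) and lowered 1 (ITGA8), where 6.22% of all genes were higher and 9.02% lower. The receptors named for PM10 were also named after their values were seen.

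TGF-beta is a known inducer of several of these matrix genes, and its list was read beside them. Of 13 genes 12 were tested, and cytokines raised 9 and lowered 2 (LTBP1 and TGFB3) both without PM10 (median log2 change 0.45, beside -0.03 over all genes) and with PM10 (median 0.64, beside -0.11). The shares of all genes called higher and lower were 25.9% and 30.3% without PM10 and 25.8% and 39.6% with PM10. LTBP2, a protein of elastic fibres, rose by 2.08, the receptor TGFBR2 by 1.88 and the crosslinking enzyme TGM2 by 1.31 on the log2 scale. The ligand TGFB3 fell by 1.68. PM10 in normal hIECs raised 0 of the 12 and lowered 3, LOX and TGM2 among them, where 5.51% of all genes were higher and 3.72% lower. In inflamed hIECs it raised 5, LTBP2, TGFB2, TGFBR2 and TGM2 among them, and lowered 0. There 6.22% of all genes were higher and 9.02% lower. LOX, LTBP1 and TGFB2 were named after their values were seen.

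The treatments showed in genes known to respond to them. Of 8 cytokine response genes, 6 passed the filter in normal and inflamed libraries alike, and all 6 rose in inflamed hIECs, where 25.9% of all genes did. GBP5, a guanylate-binding protein, was listed at 0 in the normal libraries and stood at 129 and 128 FPKM in inflamed hIECs, and CXCL10, a chemokine, stood at 1.73 and 1.27 FPKM in normal and 1314 and 1283 FPKM in inflamed hIECs. Of 6 genes known to respond to PM10, 4 were tested, and all 4 rose with PM10 in normal hIECs, where 5.51% of all genes did. In inflamed hIECs CYP1B1 and TIPARP rose with PM10, where 6.22% of all genes did, while HMOX1 (log2 fold change 0.03, limma adjusted p = 0.836) and NQO1 (log2 fold change 0.12, limma adjusted p = 0.286) were not called. The interaction of HMOX1 and NQO1 was negative (limma adjusted p = 0.0323 and 0.0333), as was that of 4.48% of all genes. After median centring 1 of the 4 tested genes had a negative interaction called and 1 a positive one. After quantile normalization 1 was negative and 0 were positive. CYP1B1, the most abundant of them, stood at 6.91 and 5.95 FPKM in normal hIECs and 65.7 and 62.8 FPKM with PM10, and at 37.6 and 35.7 FPKM in inflamed hIECs and 254.3 and 254.1 FPKM in inflamed hIECs with PM10.

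Markers of cell types that make matrix moved with the treatments too. The 12 mesenchymal markers summed to 3557 and 3660 FPKM in normal hIECs, 3277 and 3278 FPKM with PM10, 3488 and 3524 FPKM in inflamed hIECs and 2804 and 2766 FPKM in inflamed hIECs with PM10. PM10 in inflamed hIECs raised LUM and lowered 7 (median log2 change -0.30, beside -0.01 over all genes, of which 6.22% were higher and 9.02% lower), beside the fall of THBS2. Cytokines without PM10 raised 4 and lowered 6 (25.9% and 30.3% of all genes), but raised 6 and lowered 4 after quantile normalization, with LUM higher by 1.31 and THY1 by 0.60, and PDGFRA and TWIST1 lower (-0.69 and -0.65). The 6 smooth muscle markers summed to 1829 and 1674 FPKM in normal hIECs, 1358 and 1383 FPKM with PM10, 2481 and 2518 FPKM in inflamed hIECs and 2510 and 2534 FPKM in inflamed hIECs with PM10, beside the changes of FN1. TAGLN, their most abundant gene, averaged 1079 FPKM and rose with cytokines, as did ACTA2, while ACTG2 fell and MYH11, which defines mature smooth muscle, was listed at 0. The epithelial markers summed to 641 and 652 FPKM in normal hIECs, 598 and 636 FPKM with PM10, 352 and 347 FPKM in inflamed hIECs and 305 and 287 FPKM in inflamed hIECs with PM10, with KRT18 and KRT8 lower under cytokines and KRT19 not called. The part of these markers in the results was not tested.

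Each tested gene was also set beside the genes whose profiles over the 8 libraries were nearest to its own, by the Euclidean distance between log2(FPKM + 1) values centred on each gene's mean. The nearest to FN1 were BUB1B, SLC7A5 and ACTA2 (distances 0.181, 0.192 and 0.198). The nearest to TNC were ATF3, RGS16 and PARP9 (0.204, 0.259 and 0.409), and those to SPARCL1 were OSR1, CA10 and EFNA3 (0.304, 0.407 and 0.421). For THBS2 they were EPHA7, DBX2 and TBX2 (0.275, 0.325 and 0.387) and for SPP1 IGSF1, KRT7 and XRCC4 (0.318, 0.321 and 0.363). POSTN had the closest neighbour, DNAJA1 at 0.0462, before PAQR7 and CCDC43. The nearest to SPARC were POLR1D, COPE and TSEN15, to THBS1 ACTR2, EFR3A and PSMD2, and to SPON1 LGI4, SH2D3C and SERPINA3, the first of each at 0.0808, 0.0898 and 0.195. A gene that varies little lies near many others, so small distances for SPARC, POSTN and THBS1 go with their small changes.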

How the data were processed

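The authors removed adapters with Cutadapt, trimmed reads with Sickle, aligned the paired 100-base reads to GRCh38 with HISAT2 and estimated expression with StringTie. The values the authors deposited are FPKM, with no further scaling between libraries and no counts, so no count test was run and read depth was not derived from them. The lowest value above 0 is given in its place. The annotation release they used is not given in the sources used here. Positions and overlaps come from GENCODE 44, which held 99.5% of the gene identifiers.

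The values were taken as log2(FPKM + 1) and fitted in limma 3.58.1 (R 4.3.3) with a trend and all 8 libraries, over the 14206 genes that reached 1 FPKM in 2 or more libraries. Benjamini-Hochberg adjustment of the p-values covered all of these genes in each comparison. The fit was tested on simulated data. Tables and figures used Python 3.11.15, pandas 2.3.3, numpy 2.4.6 and matplotlib 3.10.9.

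The 10 genes and the lists were chosen with earlier results of these data known. The genes named were the 10, the 4 tested genes of each list with the largest cytokine change, the most abundant gene of each list, markers at 0 in all libraries, the 3 nearest genes by profile, and overlapping genes. A few results under this rule are not reported here. Alternatives were the pseudocount, the filter, the scaling, the libraries fitted, the trend and a replicate block.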

Additional observations from a re-analysis of the deposited data

Results flagged for a closer look

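The effect of PM10 differed between inflamed and normal hIECs for 4 of the genes, by limma's interaction term on log2(FPKM + 1) adjusted over 14206 genes, of which 6.6% were called. Leaving out 1 library at a time, the call was lost for FN1 with any of 4 libraries, for SPP1 with any of 6 and for THBS2 with either of 2, and held for TNC. The interaction was 0.47 for FN1 (limma adjusted p = 0.0105), which stood in both inflamed libraries with PM10 above both inflamed libraries without it, and in both normal libraries with PM10 below both without it. It was 0.98 for SPP1 (limma adjusted p = 0.023), with the same arrangement of libraries. It was -0.78 for TNC (limma adjusted p = 0.00205), which was higher with PM10 in both normal libraries and lower in both inflamed ones. It was -0.87 for THBS2 (limma adjusted p = 0.0104), which was lower with PM10 in both inflamed libraries, while its normal groups overlapped.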

How the results depend on the processing

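The calls for cytokines were the steadiest, with 6 to 7 of the 8 genes (SPON1 left out, a choice made after seeing the data) called without PM10 and 7 to 8 with PM10 when 1 library at a time was left out. For PM10 the counts ranged from 1 to 6 in normal hIECs, from 2 to 6 in inflamed hIECs and from 1 to 6 for the interaction. In a fit of only the 2 groups compared, limma called 0 of the 8 genes for PM10 in normal hIECs (5 at an unadjusted p under 0.05) and 6 for PM10 in inflamed hIECs. Over all genes, PM10 in normal hIECs gave 1311 calls, against 23 in that fit, 2050 without mitochondrial genes and 194 to 2627 with 1 library left out. PM10 in inflamed hIECs gave 2165, with 675 to 2992 over the alternatives, the fit of 2 groups included. The interaction gave 937, with as few as 263. The fold changes of the 8 genes kept their direction in every alternative run except that SPARC turned to 0.021 for PM10 in inflamed hIECs and 0.046 for the interaction under quantile normalization and THBS2 ranged from -0.15 to 0.0030 for cytokines without PM10 with 1 library left out, turning without normal replicate 2, none of them called. SPARC also lost its call for cytokines with PM10 under quantile normalization, where its change was 0 (limma adjusted p = 1). The cause was not tested. The other lists were recomputed under the 3 alternative scalings only, where COL1A2 was the called gene that changed sign, for cytokines without PM10 under quantile normalization.

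Of all genes called for PM10 in normal hIECs, 59.7% were higher, against 42.9% after median centring, 49.8% after quantile normalization and 74.9% without mitochondrial genes. For PM10 in inflamed hIECs the share was 40.8%, and 50.8% after quantile normalization. For the interaction it was 32.0%, against 45.7% and 46.6% after median centring and quantile normalization.

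With the replicate number as a block, 4 of the 8 genes were called for PM10 in normal hIECs, with SPARCL1 (limma adjusted p = 0.0698) lost, and 3, 6, 8 and 4 for PM10 in inflamed hIECs, cytokines without and with PM10 and the interaction. The difference between the libraries of a group, taken in the order of their replicate numbers, correlated at -0.0015 to 0.079 across the 6 pairs of groups. Each group gave a single such difference, and whether same-numbered libraries were handled together was not tested. FPKM hold no counts, so the counting error of low values such as those of SPON1 and SPON2 is not known.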

Other observations

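The 6 proliferation markers, which include MKI67, TOP2A, CCNB1 and PCNA (the most abundant, at a mean of 67.3 FPKM), were all called higher with cytokines, without PM10 (median log2 change 0.67, beside -0.03 over all genes, of which 25.9% were higher) and with PM10 (median 0.92, beside -0.11 and 25.8%). PM10 in normal hIECs lowered CCNB1, CDK1, MKI67 and TOP2A (3.72% of all genes were lower). In inflamed hIECs it lowered CDK1, named after its value was seen, where 9.02% of all genes were lower.

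The 6 neuronal and glial markers summed to 191 and 183 FPKM in normal hIECs, 197 and 203 FPKM with PM10, 103 and 104 FPKM in inflamed hIECs and 122 and 119 FPKM in inflamed hIECs with PM10, led by STMN2 at a mean of 91.5 FPKM. Cytokines lowered STMN2 by 1.14 and TUBB3 by 0.28 on the log2 scale, while ELAVL4 and SOX10 were listed at 0. Of 5 endothelial markers PECAM1, CDH5 and VWF were listed at 0, and EMCN, the most abundant, fell with cytokines from 28.9 and 23.8 FPKM to 6.45 and 6.15 FPKM. Of 6 leukocyte and macrophage markers CD14, CSF1R and CD163 were listed at 0, and AIF1, the most abundant, averaged 0.947 FPKM and reached 1 FPKM in the untreated normal libraries alone, at 2.84 and 2.74 FPKM. CD68 reached 1 FPKM only in inflamed hIECs with PM10, at 1.11 and 1.83 FPKM, beside 0.399 and 0.333 FPKM in inflamed hIECs and 0.308 and 0 FPKM in normal hIECs with PM10. It passed the filter through those 2 libraries alone, as AIF1 did through the normal ones, so no test of either gene is given. The pluripotency markers POU5F1, NANOG and LIN28A were listed at 0 in all 8 libraries.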
